A study of Mus musculus with 14 samples.

Results

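The Th1 effector cytokines followed here are 9 genes, Ifng, Tnf, Il2, Il21, Csf2, Lta, Ltb, Il3 and Tnfsf11. They were chosen by name and read at every probe set annotated to that single symbol, which gave 11 of the 34945 probe sets with 1 gene symbol on the array. Ifng, Tnf, Il2, Csf2, Lta, Ltb and Il3 had 1 probe set each, and Il21 and Tnfsf11 had 2 each. A probe set annotated to both Ntan1 and Il2 was left out because it cannot be given to either gene.

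RNA of murine Th1 rep cells, Th1 cells that had been restimulated repeatedly in culture, was measured on 14 arrays. Cells treated with Antagomir-31, which blocks miR-31, were compared with cells treated with Antagomir-SCR, a scrambled control oligonucleotide, at 36 h (2 arrays per treatment), 48 h (2 per treatment) and 72 h (3 per treatment, numbered 2 to 4). Apart from the antagomir, the groups shared everything that the sources state. The cells came from naive CD4+CD62Lhi T cells of OT-II mice aged 6 to 10 weeks, which carry a T cell receptor specific for an ovalbumin peptide. They were polarized with IL-12 and a blocking antibody to IL-4, restimulated every 6 days with irradiated antigen presenting cells and peptide, and grown with added IL-2 after the first round. When 4 rounds were complete they received the antagomir at 1 µM for 1.5 h and were then reactivated with plate-bound αCD3/αCD28 in medium with IL-12, anti-IL-4 and IL-2, so that IL-2 protein was added in all groups. The study generally takes cells off the stimulus at 48 h unless stated otherwise, and the sources used here do not say whether this was done for the 72 h cells. The sources do not say whether replicate arrays hold RNA of separate cultures, and the p-values below therefore rest on a spread between arrays that may be technical.

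T helper cells of the Th1 type act through secreted and membrane-bound cytokines. Signals from the T cell receptor and CD28 switch on the cytokine genes through NFAT, NF-κB and AP-1, and their mRNAs are often short-lived once the signal ends. IFN-γ activates macrophages, TNF drives inflammation, IL-2 is a T cell growth factor, IL-21 acts on B cells and T cells, GM-CSF (Csf2) and IL-3 act on myeloid cells, lymphotoxins organize lymphoid tissue, and RANKL (Tnfsf11) is the cytokine that drives osteoclast formation. A miRNA represses mRNAs that pair with its seed, the bases 2 to 8 from its 5′ end, which are shown in capitals for the miRNA that Antagomir-31 is directed against (RefSeq, GRCm38.p6, chr4:88910614-88910635, minus strand).

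mmu-miR-31-5p: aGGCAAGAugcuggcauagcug

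The cytokine genes lie partly in clusters. In the RefSeq annotation of GRCm38.p6, Il3 and Csf2 lie on chromosome 11 with 1 annotated gene between them, Il2 and Il21 on chromosome 3 with 2 between them, and Ltb, Tnf and Lta on chromosome 17, with 1 gene between Ltb and Tnf and 0 between Tnf and Lta. Ifng lies on chromosome 10 and Tnfsf11 on chromosome 14. The 250 bases before the gene start are shown for 4 genes with opposite courses over time, Il3, Csf2 and Il2, whose mRNAs were strongly lower at 72 h, and Ltb, whose mRNA was higher. They span chr11:54267280-54267529 (Il3, minus strand), chr11:54249900-54250149 (Csf2, minus strand), chr3:37125955-37126204 (Il2, minus strand) and chr17:35194257-35194506 (Ltb, plus strand) of GRCm38.p6, and are read along the strand of the gene. Capitals mark GGAAA, the core of NFAT and other Rel family sites, on either strand (TTTCC when read from the other strand), and TATAAA, the TATA box, on the strand of the gene.

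Il3: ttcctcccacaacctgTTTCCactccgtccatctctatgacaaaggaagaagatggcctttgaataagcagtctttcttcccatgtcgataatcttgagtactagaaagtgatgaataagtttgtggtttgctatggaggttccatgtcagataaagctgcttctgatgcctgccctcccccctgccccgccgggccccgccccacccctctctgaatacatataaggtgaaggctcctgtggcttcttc
Csf2: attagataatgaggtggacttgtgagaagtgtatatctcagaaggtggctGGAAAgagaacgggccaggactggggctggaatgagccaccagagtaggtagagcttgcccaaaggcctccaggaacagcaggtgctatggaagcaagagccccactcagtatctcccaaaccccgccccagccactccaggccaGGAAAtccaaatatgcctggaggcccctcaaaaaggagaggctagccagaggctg
Il2: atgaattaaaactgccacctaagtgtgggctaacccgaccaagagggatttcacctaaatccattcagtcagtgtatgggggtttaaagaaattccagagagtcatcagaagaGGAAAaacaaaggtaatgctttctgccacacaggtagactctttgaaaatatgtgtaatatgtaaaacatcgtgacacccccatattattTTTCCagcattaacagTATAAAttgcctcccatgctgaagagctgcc
Ltb: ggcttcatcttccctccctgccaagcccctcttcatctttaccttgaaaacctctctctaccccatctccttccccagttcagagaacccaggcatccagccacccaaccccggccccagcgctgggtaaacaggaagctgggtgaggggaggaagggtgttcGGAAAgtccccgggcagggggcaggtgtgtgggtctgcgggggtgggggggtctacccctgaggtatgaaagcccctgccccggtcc

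The windows of 8 of the 9 genes lie outside the annotated gene. The window of Lta starts from a transcript start inside the gene, so that 227 of its 250 bases lie within the annotated gene, and Lta is left out of the following counts. GGAAA was present in all 8 windows, and also in 55.6% of the 32851 windows of the same length in the RefSeq table. TATAAA was present in 3 of the 8, those of Ifng, Tnf and Il2, and in 7.59% of all windows. TGANTCA, a core of AP-1 sites searched on both strands, was present in 0 of the 8 and in 6.75% of all windows. These 3 motifs do not overlap in the windows shown. Il3, whose mRNA differed most over time, had 1 GGAAA, as had Ltb, whose mRNA was higher at 72 h, so that the number of matches did not separate them. A match is a run of letters and not a measured binding site.

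The arrays were those of T cells. Of 12 Th1 marker genes, 9 lay on all 14 arrays above the upper quartile of the probe sets with 1 gene symbol. Among them was Tbx21, the gene of the Th1 transcription factor T-bet, at 944 to 1885. Il12rb2 and Twist1 lay below that quartile on some arrays only. The chemokine receptor gene Cxcr3 was the 1 below it on all 14 arrays, at 44.4 to 64.9. The measured markers of dendritic cells (5), B cells (5), monocytes and macrophages (6), Th17 cells (2) and Th2 cells (5) all lay below that quartile on every array. Of 5 measured markers of CD8 T and NK cells, Cd8a, Cd8b1, Ncr1 and Eomes were low, between 12.3 and 45.2, and the receptor gene Klrk1 was high at 2296 to 3416. Of 3 measured Treg markers, Foxp3, which defines these cells, was at 6.52 to 15.8, Ikzf2 at 34.2 to 102 and Nrp1 at 136 to 790. The summed Treg markers were 750 to 776 in Antagomir-31 cells and 831 to 848 in Antagomir-SCR cells at 36 h, and 240 to 254 in Antagomir-31 cells and 242 to 257 in Antagomir-SCR cells at 72 h. At 48 h these sums were 580 to 619 in Antagomir-31 cells and 642 to 666 in Antagomir-SCR cells. Their part in the results was not tested. At 72 h the summed B cell markers were 128 to 147 in Antagomir-31 cells and 128 to 136 in Antagomir-SCR cells. The sums of Th1 markers, Ifng among them, were 28348 to 29238 in Antagomir-31 cells and 29608 to 30136 in Antagomir-SCR cells. In the same order, those of CD8 T and NK cells were 2399 to 2553 and 2554 to 2889. Those of monocytes and macrophages were 212 to 223 and 205 to 208. The part of these differences in the results was not tested. Array medians ranged between 23.4 and 23.8 at 36 h, between 21.8 and 22.1 at 48 h, and between 27.9 and 28.4 at 72 h. Correlations of log2 values were 0.9971 to 0.9980 between arrays of the same time and 0.9714 to 0.9921 between arrays of different times. The values of Antagomir-SCR 72 h replicate 4 carry more decimals than those of the other arrays, and 0 of them were identical to another array's. The other 72 h arrays shared 215 to 300 identical values with each other. What this difference means for the results was not tested. The deposited values look as if each time had been normalized on its own, so time and normalization group cannot be told apart. Tests over time therefore use log2 values that were quantile normalized over all 14 arrays, which gives every array the same distribution of values, while tests of treatment use the deposited values. In bulk RNA, fewer expressing cells and less RNA per cell cannot be told apart.

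The course over time was the main feature of these genes. On the deposited scale the myeloid growth factor Il3 was among the brightest probe sets on the array at 36 h and 48 h and below the array median at 72 h. Csf2, Tnfsf11, Il2 and Tnf also lost most of their signal, with 27.2% of the 36 h mean left for Tnf. Il21 at its brighter probe set kept 47.7% and Ifng 50.7%. The lymphotoxin genes Lta and Ltb gained signal. Intensities of different probe sets are not comparable as amounts of RNA, so each gene is compared with itself.

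**Figure D1:**
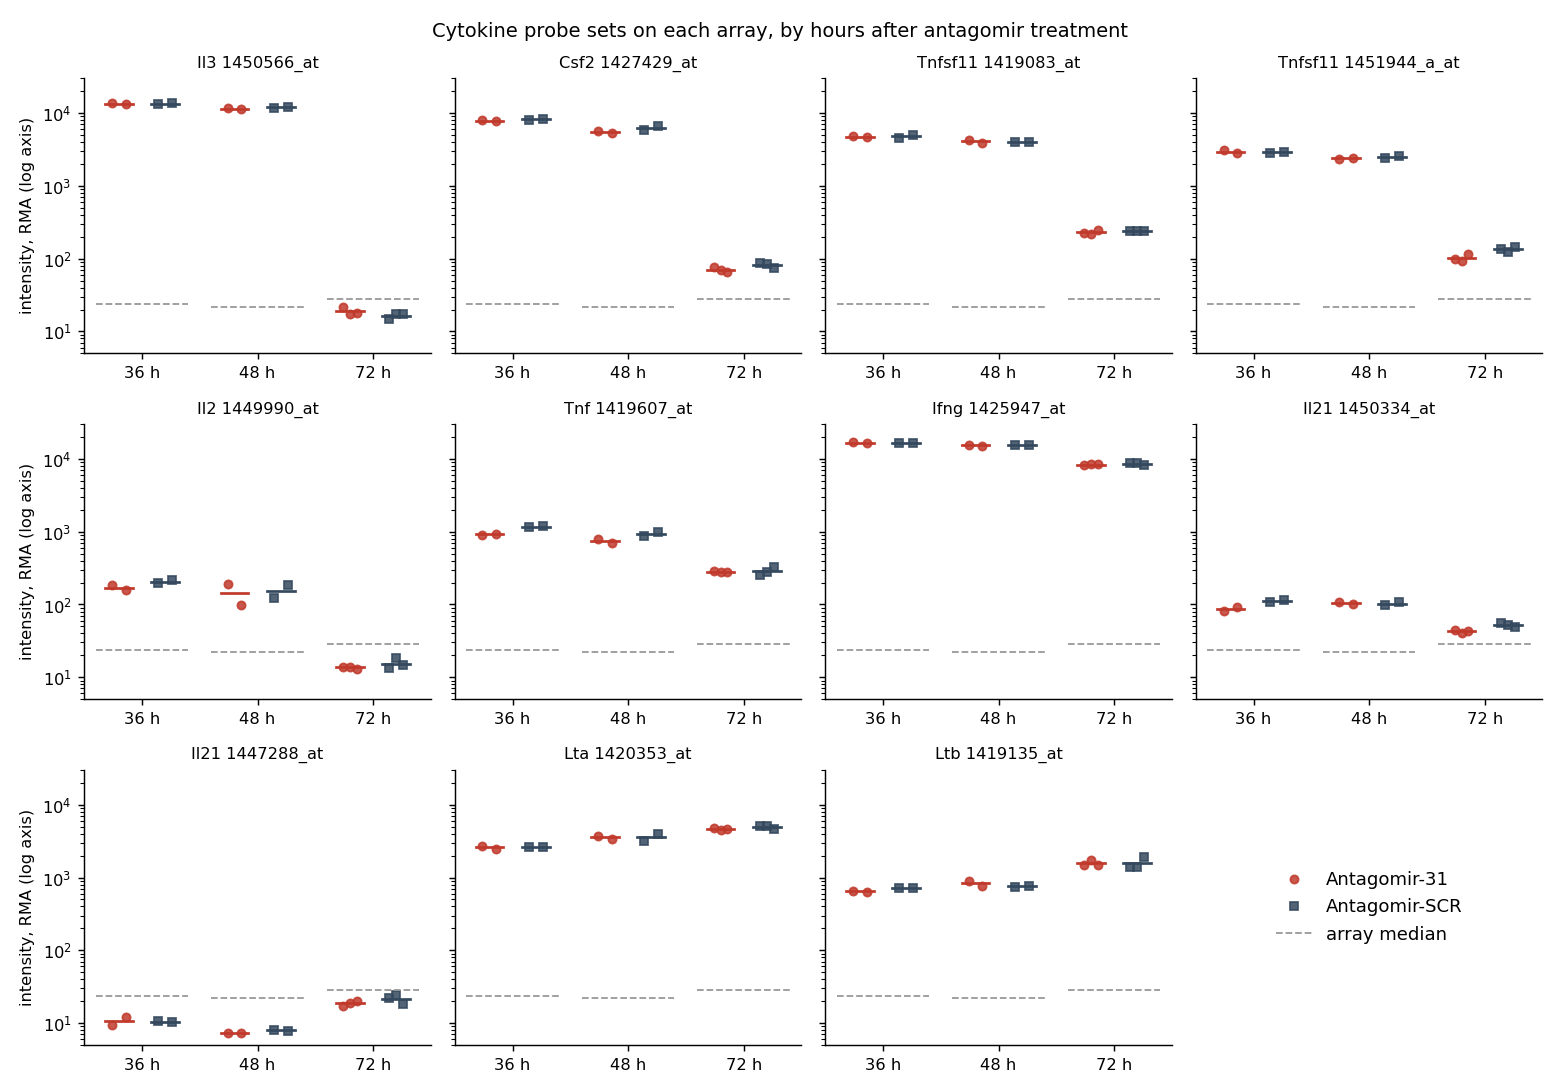
RMA intensity (log axis) of each of the 11 cytokine probe sets on each of the 14 arrays at 36 h, 48 h and 72 h, with Antagomir-31 and Antagomir-SCR arrays side by side and a dashed line at the mean of the array medians. Il3 and Il2 drop below the array median at 72 h, whereas Lta and Ltb are at their highest there.

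Il3 had intensities of 13699 and 13348 in Antagomir-31 cells and 13384 and 13652 in Antagomir-SCR cells at 36 h. At 48 h it had 11740 and 11224 in Antagomir-31 cells and 11816 and 12192 in Antagomir-SCR cells. At 72 h it had 21.57, 17.51 and 17.68 in Antagomir-31 cells and 14.76, 17.43 and 17.431 in Antagomir-SCR cells. All 6 arrays at 72 h thus lay below their array median, far from the arrays of the earlier times, and the ratio of the mean at 36 h to that at 72 h was 763, with a denominator among the dim probe sets. Il3 averaged 13521 ± 181 at 36 h (SD, n = 4), 11743 ± 399 at 48 h (n = 4) and 17.7 ± 2.18 at 72 h (n = 6). Means and SDs of a time, here and below, pool the arrays of both treatments unless a treatment is named. In the limma fit on quantile normalized values its log2 difference of 72 h from 48 h was -9.62 (SE 0.061, adjusted p = 8.72e-18), the lowest of the 17472 probe sets tested.

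Csf2, the neighbour of Il3 on chromosome 11, encodes GM-CSF. Its intensities were 7982.82 and 7793.31 in Antagomir-31 cells and 8129.64 and 8262.19 in Antagomir-SCR cells at 36 h. They were 5696.04 and 5290.03 in Antagomir-31 cells and 5900.8 and 6654.29 in Antagomir-SCR cells at 48 h. They were 76.89, 69.39 and 65.46 in Antagomir-31 cells and 85.85, 83.21 and 74.523 in Antagomir-SCR cells at 72 h. Csf2 was thus lower at each later time with no overlap between the times, but unlike Il3 stayed above the array median at 72 h. The log2 difference was -0.39 at 48 h from 36 h (SE 0.064, adjusted p = 0.000459, limma) and -6.60 at 72 h from 48 h (SE 0.058, adjusted p = 2.12e-16), the fourth lowest of all probe sets. The mean at 36 h was 106 times that at 72 h.

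Tnfsf11 encodes RANKL, which T cells carry on their surface or release. Its probe set 1419083_at averaged 4775 ± 171 at 36 h, 4065 ± 141 at 48 h and 235 ± 10.6 at 72 h (SD, n = 4, 4 and 6), and 1451944_a_at averaged 2921 ± 120, 2445 ± 85.4 and 119 ± 20.3. Both probe sets thus showed the same course, with ratios of 36 h to 72 h of 20.3 and 24.5. The log2 differences of 72 h from 48 h were -4.42 (SE 0.041, adjusted p = 2.39e-16, limma) and -4.70 (SE 0.061, adjusted p = 4.03e-15).

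Il2, the gene of the growth factor that was also added to the medium, varied most between replicates. At 36 h it had 185.15 and 155.67 in Antagomir-31 cells and 195.45 and 213.88 in Antagomir-SCR cells. At 48 h it had 189.82 and 98.65 in Antagomir-31 cells and 122.87 and 187.4 in Antagomir-SCR cells. At 72 h it had 14, 13.95 and 12.92 in Antagomir-31 cells and 13.48, 18.14 and 14.613 in Antagomir-SCR cells. All 72 h arrays lay below the array median and below every earlier array. The values at 36 h and 48 h overlapped, and their log2 difference of -0.34 did not pass (adjusted p = 0.135, limma), while that of 72 h from 48 h was -3.62 (SE 0.158, adjusted p = 3.95e-10). The ratio of 36 h to 72 h was 12.9.

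Il21, the other cytokine gene of that cluster, was lower at 72 h at its brighter probe set 1450334_at, which averaged 99.3 ± 14.7 at 36 h, 104 ± 4.41 at 48 h and 47.4 ± 5.88 at 72 h (SD, n = 4, 4 and 6). Its log2 difference of 72 h from 48 h was -1.50 (SE 0.052, adjusted p = 4.54e-11, limma). The second probe set, 1447288_at, lay below the median of every array and did not pass the filter on low values. It went the other way, with 7.29 and 7.3 in Antagomir-31 cells and 8.04 and 7.78 in Antagomir-SCR cells at 48 h, against 16.96, 18.91 and 20.24 in Antagomir-31 cells and 22.3, 24 and 18.172 in Antagomir-SCR cells at 72 h. Without the filter its log2 difference was +1.08 (adjusted p = 8.65e-08, limma). The direction for Il21 thus rests on 1 of 2 probe sets that disagree.

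Tnf had a smaller decrease. It averaged 1048 ± 150 at 36 h, 839 ± 121 at 48 h and 285 ± 21.8 at 72 h (SD, n = 4, 4 and 6), so that 36 h was 3.67 times 72 h. At 36 h the SD was 5.32 among the Antagomir-31 arrays and 23.6 among the Antagomir-SCR arrays (n = 2 each). The pooled SD of 150 thus mostly holds the difference between the treatment means. The log2 difference was -0.26 at 48 h from 36 h (SE 0.070, adjusted p = 0.0113, limma) and -1.86 at 72 h from 48 h (SE 0.064, adjusted p = 4.35e-11).

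Ifng, the defining cytokine of Th1 cells, stayed strongly expressed at all 3 times. At 36 h it had 17166 and 16420 in Antagomir-31 cells and 16622 and 16702 in Antagomir-SCR cells. At 48 h it had 15478 and 15182 in Antagomir-31 cells and 15675 and 15625 in Antagomir-SCR cells. At 72 h it had 8187.6, 8498.6 and 8460.2 in Antagomir-31 cells and 8710.3, 8717.9 and 8313.3 in Antagomir-SCR cells. The times did not overlap, and the mean at 36 h was 1.97 times that at 72 h. The early values were close to the top of the scale, so the change in mRNA may have been larger. The log2 difference of 72 h from 48 h was -1.07 (SE 0.032, adjusted p = 1.07e-11, limma). At 36 h and 48 h Ifng was close to the top of the scale, at 82.5 to 91.1% of the brightest intensity on its array. It was second in rank on all 8 of these arrays, so that quantile normalization gave it exactly the same value on each and its log2 difference between 36 h and 48 h was 0 by construction. On the deposited values that difference was -0.11 (adjusted p = 0.0198, limma). For the same reason the SE and adjusted p of 72 h from 48 h given above do not measure the spread between the early arrays. As deposited, the log2 difference of 72 h from 48 h was -0.87 (SE 0.031, adjusted p = 6.06e-11, limma), and with median centring it was -1.23.

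Lta and Ltb encode lymphotoxin α and β, which together form a membrane-bound trimer, and were the 2 of the 9 genes that were higher at 72 h than at 36 h, apart from the dim Il21 probe set. Lta averaged 2622 ± 123 at 36 h, 3565 ± 336 at 48 h and 4825 ± 262 at 72 h (SD, n = 4, 4 and 6). Ltb averaged 683 ± 42.1, 799 ± 71.8 and 1566 ± 217. The deposited means of Lta grew by similar ratios in both steps, 1.36 and 1.35, and those of Ltb by 1.17 and 1.96. On quantile normalized values Lta had a log2 difference of +0.50 at 48 h from 36 h (SE 0.066, adjusted p = 0.000105, limma), and Ltb was higher in both steps (+0.27, SE 0.098, adjusted p = 0.0415, at 48 h from 36 h, and +0.72, SE 0.089, adjusted p = 8.91e-06, at 72 h from 48 h). The first step of Ltb did not pass on the deposited values (+0.22, adjusted p = 0.0821). The difference of Lta between 72 h and 48 h depended on the scaling. It was +0.24 on quantile normalized values (adjusted p = 0.00283, limma), +0.44 as deposited and 0.08 with each array centred on its median (adjusted p = 0.276). Tnf, which lies directly beside Lta, was lower at 72 h.

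**Figure D2:**
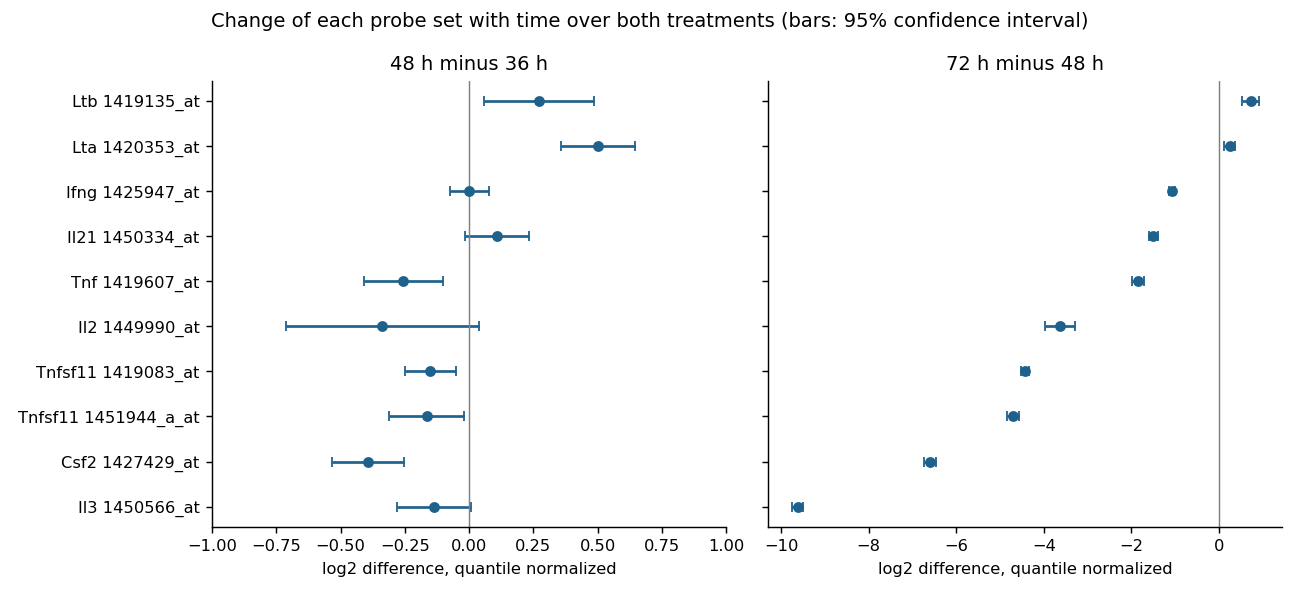
Log2 difference between times over both treatments on quantile normalized values for the 10 tested probe sets, with bars for the 95% confidence interval. From 48 h to 72 h the estimates run from -9.62 for Il3 to +0.72 for Ltb, and from 36 h to 48 h none is further from 0 than the +0.50 of Lta.

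At 72 h from 48 h, 8 of the 10 tested cytokine probe sets were lower and 2 were higher, with a median log2 difference of -2.74. Over all probe sets 36.2% were lower and 40.3% higher, and the median was 0.02. At 72 h from 36 h the same 8 were lower and the same 2 higher, with a median of -3.04, against 37.8% lower and 40.7% higher of all probe sets. Between 36 h and 48 h the cytokines moved little. Csf2, Tnf and Tnfsf11 (1419083_at, log2 -0.15, adjusted p = 0.0181, limma) were lower and Lta and Ltb higher, against 20.3% of all probe sets lower and 21.8% higher, and the other 5 did not pass. As deposited, 6 were lower (Csf2, Tnf, both Tnfsf11 probe sets, Ifng and Il3) and 1, Lta, higher. With median centring Csf2 and Tnf were lower and Lta, Ltb and Il21 (+0.18, adjusted p = 0.0251, limma) higher. The count of 5 on quantile normalized values was 3 without 1 array, for each of Antagomir-31 36 h replicate 1, Antagomir-31 48 h replicate 2 and Antagomir-SCR 36 h replicate 2. The scaling sets the balance over all probe sets. As deposited, the median log2 difference of 72 h from 48 h was 0.35 and 83.1% of the calls were higher, against 52.7% on quantile normalized values and 48.6% with median centring. For 48 h from 36 h the share of calls that were higher was 34.4% as deposited, 51.7% on quantile normalized values and 70.8% with median centring, and for 72 h from 36 h it was 78.4%, 51.8% and 54.5%. The 8 cytokine probe sets that were lower at 72 h were lower under all 3 scalings.

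The treatment comparison asks whether blocking miR-31 altered the cytokine mRNAs at each time. Ifng differed little between Antagomir-31 and Antagomir-SCR cells at any time, and 1 probe set of Tnfsf11 was lower in Antagomir-31 cells at 72 h. Tnf was lower on every Antagomir-31 array at 36 h and 48 h, and Il21 on every Antagomir-31 array at 36 h and 72 h, but neither passed the test over all probe sets. With so few arrays per treatment, arrays can separate by treatment without any effect of the antagomir. The share of all probe sets that separated was not counted. A separation of arrays, here and below, is therefore a description and not evidence of an effect. At 36 h 0 of the 10 tested cytokine probe sets passed, against 0.0114% of all probe sets (2 of 17472, with 854 at an unadjusted p under 0.05). At 48 h 0 passed, against 0% of all (0 of 17472, with 1063 at an unadjusted p under 0.05). At 72 h 1 passed, against 0.887% of all (155, of which 99 or 0.567% of those tested were lower). The split of calls at 72 h depended on the scaling, with 56 higher and 99 lower on the deposited values, 44 and 151 with median centring and 101 and 103 after quantile normalization.

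**Figure D3:**
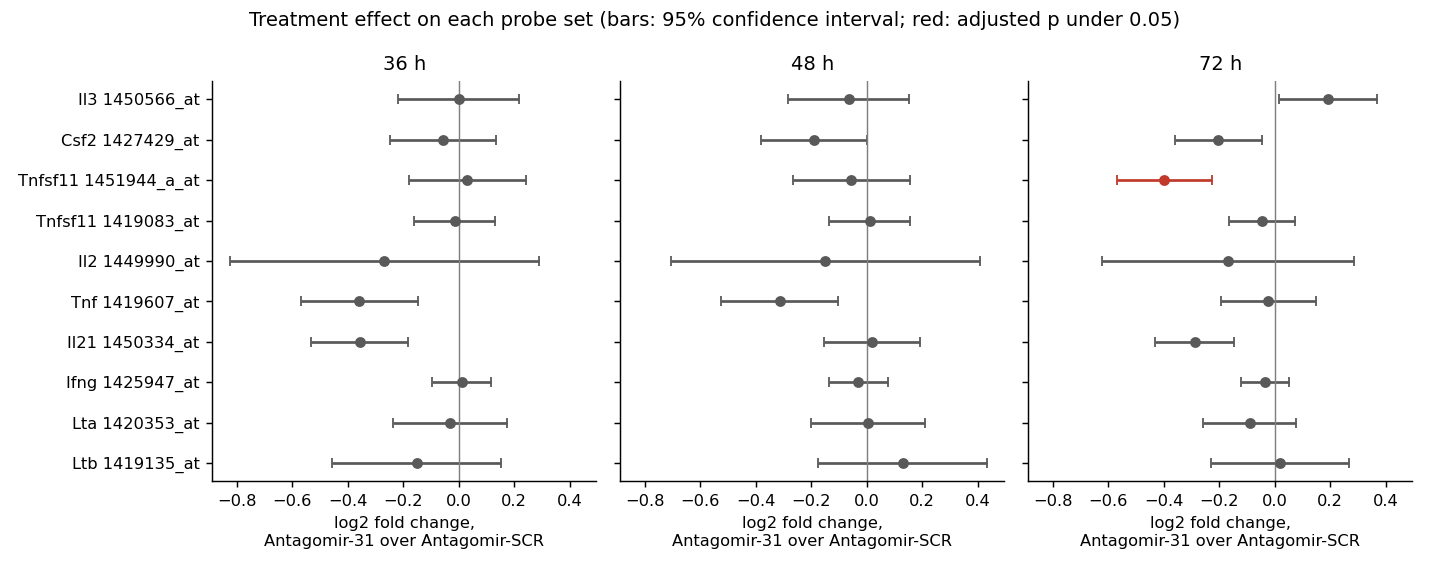
Log2 fold change of Antagomir-31 over Antagomir-SCR at 36 h, 48 h and 72 h for the 10 tested cytokine probe sets on the deposited values, with bars for the 95% confidence interval and red for an adjusted p under 0.05. Only Tnfsf11 1451944_a_at at 72 h, at -0.40, is red, and the estimates for Ifng are 0.01, -0.03 and -0.03.

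For Ifng the log2 fold changes of Antagomir-31 over Antagomir-SCR were 0.01 at 36 h (95% confidence interval -0.09 to 0.12), -0.03 at 48 h (-0.14 to 0.08) and -0.03 at 72 h (-0.12 to 0.05, adjusted p = 0.694, limma). At 36 h and 48 h Ifng was close to the top of the scale, so the narrow intervals at these times hold for the intensities and do not bound the difference in mRNA. Its intensities overlapped between the treatments at 36 h and 72 h. At 48 h both Antagomir-31 arrays lay just below both Antagomir-SCR arrays.

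Tnfsf11 gave 2 different readings at 72 h. Probe set 1451944_a_at had 98.14, 93.85 and 116.7 in Antagomir-31 cells, against 134.89, 125.13 and 145.56 in Antagomir-SCR cells. The treatments did not overlap, and the log2 fold change was -0.40 (SE 0.079, 95% confidence interval -0.57 to -0.23, adjusted p = 0.0441, limma), a ratio of 0.759. Probe set 1419083_at had 227.19, 219.85 and 248.88 in Antagomir-31 cells, against 243.33, 237.35 and 236.36 in Antagomir-SCR cells. These overlapped, with a log2 fold change of -0.05 (SE 0.055, 95% confidence interval -0.16 to 0.07, adjusted p = 0.703). The lower level at 72 h thus rests on 1 of the 2 probe sets, at a time when both were far below their level at 36 h. The call at 1451944_a_at was kept without Antagomir-31 72 h replicate 4 (adjusted p = 0.00517) and lost without any other single array, with adjusted p up to 0.169, while the log2 fold change stayed between -0.49 and -0.33. At 36 h this probe set had 3081.6 and 2824.4 in Antagomir-31 cells and 2833.1 and 2944.3 in Antagomir-SCR cells, which overlapped. The difference between its effects at 72 h and 36 h was -0.43 (SE 0.125, adjusted p = 0.267), and that between 72 h and 48 h was -0.34 (adjusted p = 0.436), so a difference between the times was not shown.

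Il21 at 1450334_at had 82.24 and 92.07 in Antagomir-31 cells, against 109.14 and 113.78 in Antagomir-SCR cells, at 36 h. At 48 h it had 107.85 and 100.83 in Antagomir-31 cells, against 98.96 and 106.92 in Antagomir-SCR cells. At 72 h it had 44.25, 41.05 and 42.64 in Antagomir-31 cells, against 56.32, 51.79 and 48.315 in Antagomir-SCR cells. The treatments separated at 36 h and 72 h and overlapped at 48 h. The log2 fold change was -0.36 at 36 h (SE 0.080, adjusted p = 0.408, limma), 0.02 at 48 h and -0.29 at 72 h (SE 0.065, 95% confidence interval -0.43 to -0.15, adjusted p = 0.0593). The dim probe set 1447288_at was at -0.19 at 72 h with overlapping arrays (adjusted p = 0.535 in the fit without the filter).

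Tnf had 914.9 and 922.42 in Antagomir-31 cells, against 1160.7 and 1194.1 in Antagomir-SCR cells, at 36 h. At 48 h it had 796.06 and 699.91 in Antagomir-31 cells, against 872.11 and 986.61 in Antagomir-SCR cells. At 72 h it had 288.89, 280.21 and 277.98 in Antagomir-31 cells, against 256.89, 283.45 and 323.81 in Antagomir-SCR cells. The treatments separated at 36 h and 48 h and overlapped at 72 h. The log2 fold change was -0.36 at 36 h (SE 0.096, 95% confidence interval -0.57 to -0.15, adjusted p = 0.589, limma), -0.31 at 48 h (SE 0.096, interval -0.52 to -0.10, adjusted p = 0.717) and -0.02 at 72 h (interval -0.19 to 0.15, adjusted p = 0.911). The effect at 72 h minus that at 36 h was +0.34 (SE 0.125, adjusted p = 0.365).

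**Figure D4:**
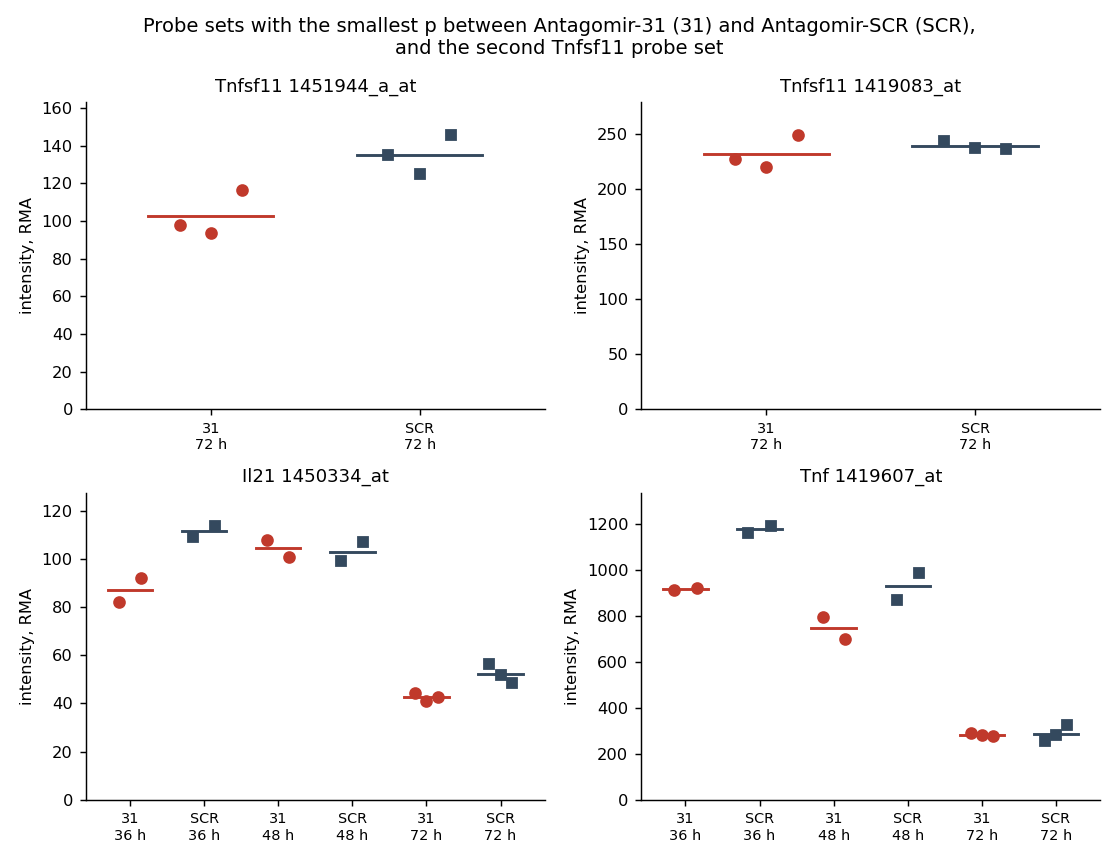
RMA intensity (linear axes starting at 0) on each array of both Tnfsf11 probe sets at 72 h and of Il21 1450334_at and Tnf at 36 h, 48 h and 72 h, with Antagomir-31 arrays left of Antagomir-SCR arrays and a line at each group mean. Tnf separates by treatment at 36 h and 48 h only, Il21 at 36 h and 72 h only, and of the Tnfsf11 probe sets only 1451944_a_at does at 72 h. The share of all probe sets that separate in this way was not counted.

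Csf2 was lower on both Antagomir-31 arrays than on both Antagomir-SCR arrays at 36 h and at 48 h, and overlapped at 72 h, where 74.523 in Antagomir-SCR replicate 4 lay below 76.89 in Antagomir-31 replicate 2. Its log2 fold changes were -0.06, -0.19 (adjusted p = 0.820, limma) and -0.20 (95% confidence interval -0.36 to -0.05, adjusted p = 0.160). Il3 at 72 h, where it was below the array median, was at +0.19 (interval 0.01 to 0.37, adjusted p = 0.238). Il2 had wide intervals, such as -0.82 to 0.29 around -0.27 at 36 h, because its replicates differed. Lta lay at -0.03, 0.00 and -0.09, and its arrays overlapped at each time. Ltb lay at -0.15, +0.13 and +0.02, with 656.22 and 638.6 in Antagomir-31 cells below 724.09 and 713.83 in Antagomir-SCR cells at 36 h and overlapping arrays at the later times.

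Averaged over the 3 times, 9 of the 10 probe sets had a log2 fold change below 0, with a median of -0.09, and 0 passed, against 0.0172% of all probe sets (3). The median over all probe sets was -0.01, and 54.7% of them lay below 0. Among the 9, Ltb (-0.00062), Tnfsf11 1419083_at (-0.016) and Ifng (-0.018) lay near 0, so the count alone does not show a shared decrease. The averages nearest to the threshold were those of Il21 (-0.21, adjusted p = 0.192, limma) and Tnf (-0.23, adjusted p = 0.198). For the effect at 72 h minus that at 36 h 0 of the 10 passed, against 0.00572% of all probe sets (1), and for 72 h minus 48 h 0 passed, against 0.0172% (3). At an unadjusted p under 0.05 there were 2 of the 10 at 36 h, 2 at 48 h, 4 at 72 h, 4 in the average, 2 for 72 h minus 36 h and 3 for 72 h minus 48 h. Of all 17472 probe sets 854, 1063, 3224, 1619, 1983 and 1728 were under 0.05 in these comparisons. In simulated data of the same size, with 100 changes of each size in a comparison, the fit recovered 43% of log2 changes of 0.25 and 83% of changes of 0.5 at 72 h, and 22% and 73% at 36 h. The adjusted p depends on how many probe sets change. These shares may therefore be too high for 36 h, where 2 of all probe sets passed. The estimates for Tnf and Il21 at 36 h lay between these sizes.

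Genes around the cytokines were grouped into 7 lists, each gene read at its brightest tested probe set. They hold the receptors of these cytokines, transcription factors of cytokine genes, regulators of cytokine mRNA decay, other secreted or TNF family cytokines, IFN-γ response genes, IL-2 and STAT5 response genes, and genes induced by the T cell receptor. At 36 h and at 48 h 0 genes of any list passed between the treatments. At 72 h 0.388% of all genes were higher and 0.476% lower in Antagomir-31 cells. The lists were chosen with earlier results of these data known, so their counts beside these shares are descriptions.

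Among the 18 tested other cytokines, 0 were higher and 3 lower in Antagomir-31 cells at 72 h, with a list median of -0.07. Lif, whose product signals through gp130, averaged 144 ± 6.8 in Antagomir-31 cells and 239 ± 12.3 in Antagomir-SCR cells (SD, n = 3 each), with a log2 fold change of -0.73 (SE 0.062, adjusted p = 0.000861, limma). Il24, of the IL-10 family, averaged 271 ± 25.8 in Antagomir-31 cells and 415 ± 46.5 in Antagomir-SCR cells (adjusted p = 0.031). Cd70, the ligand of CD27, averaged 387 ± 26.9 in Antagomir-31 cells and 501 ± 19.1 in Antagomir-SCR cells (adjusted p = 0.036). Lif passed without any single array, whereas Il24 passed in 10 and Cd70 in 9 of the 14 fits that left out 1 array. The fourth gene by p, the Th2 cytokine gene Il13, was at +0.26 and did not pass (adjusted p = 0.109).

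Of the 9 tested receptors of these cytokines 0 passed at 72 h, with a median of -0.09. Tnfrsf11b, which encodes osteoprotegerin, the soluble decoy receptor of RANKL, averaged 180 ± 4.59 in Antagomir-31 cells and 106 ± 25.1 in Antagomir-SCR cells, a log2 fold change of +0.79 (SE 0.183, adjusted p = 0.0615, limma). Il21r, the IL-21 receptor, was at -0.23 (adjusted p = 0.114), and Il2rb and Csf2ra were each at -0.14. The groups of Tnfrsf11b differed more in fold than those of Tnfsf11, but its Antagomir-SCR arrays also varied more.

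Of 25 transcription factors, 1 was higher and 0 lower at 72 h. Egr1, an early response factor, averaged 42.4 ± 1.14 in Antagomir-31 cells and 30.3 ± 2.85 in Antagomir-SCR cells (adjusted p = 0.0184, limma). It passed in 10 of 14 fits that left out 1 array. Its levels were low, close to the array medians of 27.9 to 28.4 at 72 h in Antagomir-SCR cells. Nfkb2 averaged 286 ± 23.9 in Antagomir-31 cells and 347 ± 14.7 in Antagomir-SCR cells (adjusted p = 0.0501), and Irf4 and Junb were at -0.25 and -0.26. Of 16 decay regulators 1 was higher and 0 lower. Malt1, the protease that cleaves Regnase-1 and Roquin, which limit cytokine mRNAs, averaged 327 ± 16.3 in Antagomir-31 cells and 259 ± 15.6 in Antagomir-SCR cells (adjusted p = 0.0468), and passed in 3 of 14 such fits.

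Of 15 IFN-γ response genes 0 were higher and 1 lower at 72 h. Socs1, the feedback inhibitor of cytokine receptor signalling, averaged 341 ± 26.8 in Antagomir-31 cells and 436 ± 12.3 in Antagomir-SCR cells (adjusted p = 0.044, limma), and passed in 5 of 14 fits without 1 array. Of 14 IL-2 and STAT5 response genes 0 passed, with Pim2, a STAT5-induced kinase gene, at -0.26 (adjusted p = 0.056). Of 19 genes induced by the T cell receptor 1 was higher, again Egr1, and 1 lower. The lower one was Tnfrsf18, the costimulatory receptor GITR, with 2006 ± 90.4 in Antagomir-31 cells and 2350 ± 43 in Antagomir-SCR cells (adjusted p = 0.0468), which passed in 1 of 14 fits without 1 array.

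The same lists were read over time, where the genes named below were chosen after their values were seen. From 48 h to 72 h 38.9% of all genes were higher and 38.2% lower on quantile normalized values. As deposited these shares were 70.7% and 15.8%, and with median centring 35.4% and 42.7%. Of the 19 genes induced by the T cell receptor 18 were lower and 1 higher, with a median log2 difference of -0.99. The early response factor Egr2 averaged 2263 ± 225 at 36 h, 1722 ± 111 at 48 h and 32.1 ± 2.56 at 72 h (SD, n = 4, 4 and 6), and the nuclear receptor gene Nr4a3 averaged 1957 ± 132, 1717 ± 65.3 and 77.9 ± 7.09. These had a course like that of Csf2 and Tnfsf11, high at both early times and low at 72 h. Irf4 was the 1 that was higher (+0.25). On the deposited values 12 of the 19 were lower and 2 higher.

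IFN-γ response genes went the other way, with 13 of 15 higher and 2 lower at 72 h and a median of +0.76. Igtp, an interferon-inducible GTPase gene, averaged 909 ± 41.5 at 36 h, 853 ± 33.7 at 48 h and 3861 ± 186 at 72 h, and Gbp2, which encodes a guanylate binding protein, averaged 128 ± 6.96, 180 ± 21.1 and 885 ± 69.9. Ifng itself was lower at 72 h than at 48 h. The 2 that were lower were Cd274 (-1.50), which encodes PD-L1, and Irf8 (-0.45). The counts of 13 and 2 were the same on the deposited values, where 70.7% of all genes were higher and 15.8% lower. With median centring they were 12 and 2, against 35.4% and 42.7% of all genes.

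Of 25 transcription factors 11 were higher and 11 lower (13 and 10 as deposited). The AP-1 gene Fos averaged 121 ± 8.62 at 36 h, 120 ± 4.42 at 48 h and 18.4 ± 1.65 at 72 h, and the NF-κB subunit gene Rel 750 ± 20.3, 580 ± 34.9 and 116 ± 6.95. Tbx21 was higher, with 1225 ± 24.7, 1000 ± 52.3 and 1801 ± 63.5. Of 16 decay regulators 10 were higher and 4 lower (12 and 3 as deposited). Zfp36l2, which encodes an mRNA-destabilizing zinc finger protein, was at 590 ± 20.4, 662 ± 14.1 and 1857 ± 33.5. Its relative Zfp36 was lower, at 128 ± 12.3, 131 ± 8.77 and 84.3 ± 6.02. Of 18 other cytokines 5 were higher and 12 lower, on the deposited values 8 and 6. All counts as deposited in this paragraph stand against 70.7% of all genes higher and 15.8% lower. The means of single genes are on the deposited scale too. Tnfsf14, which encodes LIGHT and shares a receptor with the lymphotoxin trimer, was lower (-3.76), and Il10 was higher (+2.36). Of 9 receptors 4 were higher and 4 lower (5 and 1 as deposited), with Ifngr1 at +0.77 and Il2ra at +0.62. Of 14 IL-2 and STAT5 response genes, a list that holds Lta itself, 6 were higher and 5 lower (9 and 3 as deposited), with the perforin gene Prf1 at -2.92.

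**Figure D5:**
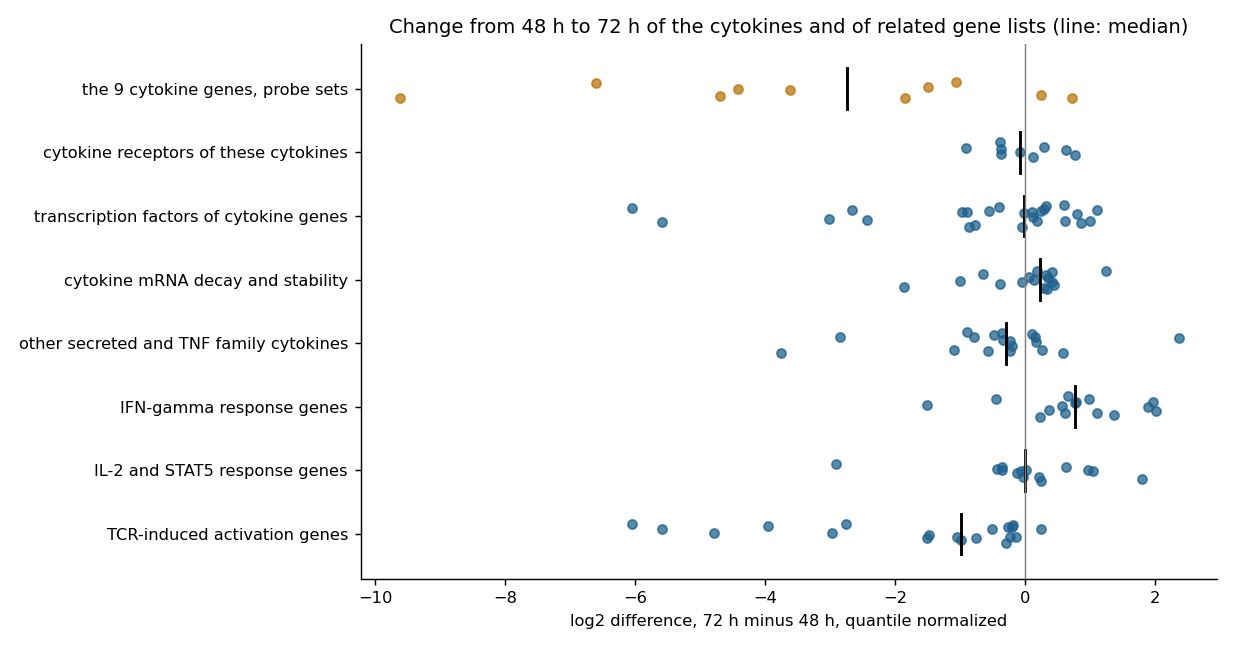
Log2 difference of 72 h from 48 h on quantile normalized values for the 10 tested cytokine probe sets and for each tested gene of 7 related lists (points), with a vertical line at each median. The cytokines have a median of -2.74, genes induced by the T cell receptor -0.99 and IFN-γ response genes +0.76.

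The genes most alike to each cytokine were found by Pearson correlation of quantile normalized log2 values over the 14 arrays among 10308 genes. Since the 14 arrays form 3 times that differ widely, any gene with the same course correlates highly, and the values are descriptions. Nearest to Il3 were Xcl1 (0.9997), Ccl4 (0.9995) and Tespa1 (0.9995), of which Xcl1 and Ccl4 encode chemokines of activated T cells. Nearest to Csf2 were Gramd1b (0.9994), Tacc2 (0.9992) and Nrn1 (0.9992). Nearest to Tnfsf11 were Ccl4 (0.9998), Gramd1b (0.9997) and Ccl1 (0.9995), so that 2 of its 3 were shared with Il3 or Csf2. Nearest to Il2 were Gm19531 (0.9957), Tmc6 (0.9954) and Wsb2 (0.9951). Nearest to Il21 were Tgm2 (0.9913), Papss1 (0.9906) and Crtam (0.9892), the last a receptor of activated T cells. Nearest to Tnf were Hmgn1 (0.9968), Traf5 (0.9934) and Ncald (0.9933), of which Traf5 encodes an adaptor of TNF receptor family signalling. Nearest to Ifng were Mtss1 (0.9992), Acsl6 (0.9990) and Scg2 (0.9990). The lymphotoxin genes had looser neighbours, with Oip5 (0.9817), Fcmr (0.9729) and Aldh1b1 (0.9698) for Lta and Itgb7 (0.9828), Ifngr1 (0.9809) and Gbp6 (0.9786) for Ltb. Lta and Ltb thus shared none of their 3 nearest genes.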

How the data were processed

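Affymetrix mouse arrays were scanned by the authors with GCOS, and RMA of the affy package gave the normalized values (no version is given in the sources used here). All 14 deposited columns, 1 for each array, hold intensities on a linear scale. Of 45101 probe sets, 64 were controls, 932 had several gene symbols and 9160 had none. The remaining 34945 were taken to log2, and the brighter 50% by mean log2 over all arrays (17472) were tested by probe set. limma 3.58.1 in R 4.3.3 fitted 6 groups of treatment and time, with Benjamini-Hochberg adjustment over all probe sets tested and a call at an adjusted p under 0.05. Treatment contrasts used the deposited values, and time contrasts used values quantile normalized over the 14 arrays. For gene lists each gene was read at its brightest tested probe set. The fit was tested on simulated data. Tables were prepared in Python 3.11.15 with pandas 2.3.3 and numpy 2.4.6, and sequences came from RefSeq (GRCm38.p6).

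The cytokines, the lists and the tests were chosen with earlier results of these data known. The text names all 9 cytokines, up to 4 genes of each list with the smallest unadjusted p at 72 h, markers, and the 3 genes most alike to each cytokine, and says where a gene was chosen otherwise. Alternatives were no filter, a mean log2 of at least 6, other scalings, only the arrays compared, a trend in the prior variance, genes collapsed to the highest probe set (brightest 60%), no _x_at or _s_at probe sets, a replicate block, and leaving out each array. The RNA sequencing of the study was not used here. The number of arrays limits the precision.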

Additional observations from a re-analysis of the deposited data

How the results depend on the processing

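The number of cytokine probe sets called between Antagomir-31 and Antagomir-SCR was 0 at 36 h, 48 h, in the average and in both differences between times under every alternative. At 72 h it was 1 on the deposited values, 0 without the filter on low values, 0 with only the 72 h arrays, 0 with genes collapsed to the highest probe set, 2 with a trend in the prior variance, 2 where the filter was a mean log2 of at least 6 (Tnfsf11 and Il21 in both), and 0 to 1 with 1 array left out. The calls over all probe sets at 72 h, 155 on the deposited values, were 13 without the filter, 8 with only the 72 h arrays, 596 with the trend, 422 where the filter was a mean log2 of at least 6, and 7 (without Antagomir-31 72 h replicate 2) to 565 (without Antagomir-31 72 h replicate 4) with 1 array left out. Between 36 h and 48 h the count of cytokine probe sets was 5, with only the Antagomir-SCR arrays 2, and with 1 array left out 3 to 6. The counts of 10 at 72 h from 48 h and from 36 h stayed at 9 to 11 under all alternatives. With genes collapsed to the highest probe set, 65 of 10916 genes were lower at 72 h in Antagomir-31 cells. Among the lists, 3 genes induced by the T cell receptor were then lower instead of 1. For transcription factors and for IL-2 and STAT5 response genes 1 was lower instead of 0. The other list counts between the treatments at 72 h stayed the same. The causes were not tested.

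Of 905 settings of the 43 single comparisons with an unadjusted p under 0.05, 868 kept direction and side of the threshold, 32 no longer passed, 5 newly passed and 0 turned. These 43, of which 26 compared times and 17 treatments, were selected by their p, which makes a turn unlikely. Of the 47 other single comparisons, 26 had the other sign under at least 1 setting. Same-numbered arrays correlated at 0.0749 (36 h), -0.183 (48 h) and -0.0168 to 0.151 (72 h), and 2 of 6 arrays at 72 h correlated best with their own number, so the numbers were not taken to pair the arrays. With a replicate block 48 probe sets and 1 cytokine probe set were called at 72 h, and with the numbers crossed at 48 h, a choice made after seeing the data, 105 and 1.

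With 2 or 3 arrays per group, a change of 0.25 on the log2 scale was mostly missed in simulated data at a single time. At 72 h the upper quartiles of the arrays over all probe sets were 129.13 to 130.01 in Antagomir-31 cells and 131.42 to 133.19 in Antagomir-SCR cells. They did not overlap, and their part in the 72 h results was not tested.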
